A study of Mus musculus with 6 samples.

Results

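The genes described here are the receptor TREM2, its signalling adaptor TYROBP and 8 genes that microglia switch on in diseased brain, Cst7, Clec7a, Axl, Spp1, Gpnmb, Cd68, Cd9 and Lyz2. They were chosen by symbol from the count table, and the 10 genes are 10 of its 33000 rows. TruSeq mRNA libraries from the frontal cortex were compared between 3 wild-type (WT) and 3 homozygous GFAP-IL6 mice, all 3 months old. The study names the strain, C57BL/6, beside the WT mice only. The question was how the mRNA of these genes differed between the genotypes. The GFAP-IL6 mouse expresses the cytokine IL6 from a transgene under the promoter of Gfap, a gene of astrocytes, so that the cytokine is made inside the brain, and the WT mice carry no transgene. No agent was given to either group, and the frozen cortex was used whole, without sorting of cells.

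TREM2 is a receptor of microglia, the resident macrophages of the brain, and it binds lipids, lipoproteins and cell debris. It has no signalling motif of its own and passes its signal through TYROBP, also called DAP12, to the kinase SYK and the enzymes downstream of it. In mouse models of amyloid deposition and neurodegeneration, microglia around lesions raise a set of lysosomal, lipid-handling and adhesion genes, the disease-associated microglia programme, and the full programme needs TREM2.

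Of the 10 genes, 5 were higher in GFAP-IL6 cortex at an adjusted p under 0.05 and none was lower. Cst7 had the largest difference, followed by Lyz2 (4.16-fold), Trem2 (2.18-fold), Cd68 (1.87-fold) and Tyrobp (1.73-fold). Axl, Spp1, Gpnmb and Cd9 did not pass the test, and Clec7a was too low to be tested. At an unadjusted p under 0.05 the count was again 5 higher and 0 lower, where 3139 of the 15341 genes tested passed in either direction. It was also 5 and 0 by the adjusted p of DESeq2 and of limma-voom. Levels are counts relative to the library total in units of 1 M (CPM), after TMM scaling, fold changes are given as log2 of GFAP-IL6 over WT with the standard error (SE) from edgeR's quasi-likelihood test, and p-values were adjusted over the 15341 genes tested. Over all these genes, 2.65% were called higher and 0.209% lower, and the median log2 fold change was -0.0038. With a log2 fold change over 1 required as well, the study's threshold for a differentially expressed gene (DEG), 3 of the 10 were called (Cst7, Lyz2 and Trem2), against 1.36% of all genes tested. The median log2 fold change of the 9 tested was 0.79, and each of the 9 was above 0, as were 49.4% of all genes. Of the 9, only Cst7 passed the filter on low counts through its GFAP-IL6 libraries alone, where it is high, so that it had to differ once tested. In whole tissue, more microglia and more mRNA per microglial cell cannot be told apart, and this holds for each level given here.

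**Figure D1:**
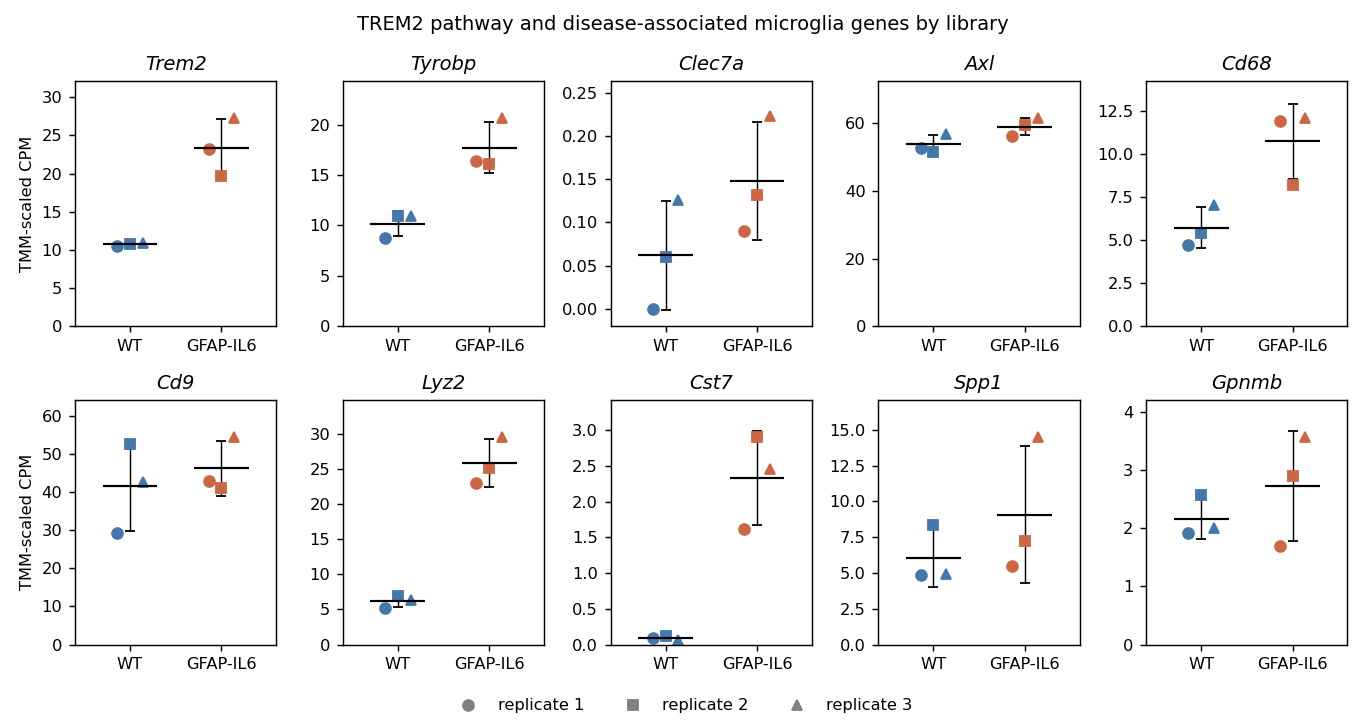
CPM of the 10 genes in each of the 6 libraries, one panel per gene on a linear axis from 0, with WT and GFAP-IL6 mice side by side, each point 1 mouse and each bar the mean. The groups lie apart for Trem2, Tyrobp, Cst7, Cd68 and Lyz2 and overlap for the other five.

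Library totals ranged from 11591066 to 16877001 counts in WT and from 7559524 to 11072008 in GFAP-IL6, so that 3 counts, taken as the floor of detection, correspond to between 0.178 and 0.397 CPM. The cytokine behind the genotype followed the labels. The 3 WT mice gave 0, 2 and 0 counts of Il6 and the 3 GFAP-IL6 mice 12, 10 and 24, and Gfap was higher by 2.84 ± 0.20 (adjusted p = 5.49e-06). Markers of the dissected tissue were present in every library: 7 genes of cortical neurons summed to between 5307 and 5566 CPM in WT and between 4571 and 5334 in GFAP-IL6. Tissue of other origin differed between libraries of both groups, since 6 genes of the choroid plexus summed to 616 CPM in WT replicate 3 and to between 4.62 and 59.6 in the other five. Likewise 6 genes of the striatum summed to 285 CPM in WT replicate 2 and to between 131 and 171 in the other libraries.

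Trem2 (ENSMUSG00000023992, GRCm38 chr17:48346401-48354147, plus strand, 5 exon blocks) encodes the receptor itself. Its level was 10.54, 10.80 and 10.86 CPM in WT replicates 1, 2 and 3 and 23.22, 19.68 and 27.24 CPM in GFAP-IL6 replicates 1, 2 and 3. The WT mice were nearly the same, the GFAP-IL6 mice varied more, and the lowest GFAP-IL6 library was well above the highest WT library. The means were 10.7 ± 0.17 and 23.4 ± 3.78 CPM (SD, n = 3), and the log2 fold change was 1.13 ± 0.13 (95% interval 0.84 to 1.41, adjusted p = 0.000289).

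Tyrobp (ENSMUSG00000030579, chr7:30413760-30417585, plus strand) encodes the adaptor that carries the signal. It was measured at 8.71, 10.92 and 10.92 CPM in WT and at 16.40, 16.11 and 20.65 CPM in GFAP-IL6. The groups did not overlap, with WT replicate 1 the lowest and GFAP-IL6 replicate 3 the highest. The log2 fold change was 0.79 ± 0.14 (95% interval 0.48 to 1.10, adjusted p = 0.00813). Without GFAP-IL6 replicate 3 it was 0.67 and no longer passed the test (adjusted p = 0.0728). Tyrobp lies 126 bases from Hcst on the opposite strand, which encodes the alternative adaptor DAP10, and Hcst had 1 to 5 counts in every library.

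The receptor and its adaptor thus both rose, and Trem2 had the larger fold change. The ratio of Trem2 to Tyrobp counts, which does not depend on scaling, was 1.21, 0.989 and 0.994 in WT and 1.42, 1.22 and 1.32 in GFAP-IL6. The highest WT ratio lay just under the lowest GFAP-IL6 ratio. The difference was 0.31 on the log2 scale, and the exact two-sided permutation test gave p = 0.1, the smallest value that 3 against 3 libraries allow.

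Lyz2 (ENSMUSG00000069516, chr10:117277331-117282321, minus strand) encodes lysozyme M, an enzyme of myeloid cells that breaks bacterial cell walls. Its level was 5.23, 6.86 and 6.34 CPM in WT and 22.95, 25.09 and 29.58 CPM in GFAP-IL6. Each GFAP-IL6 mouse was more than 3 times above each WT mouse, and the means were 6.14 ± 0.835 and 25.9 ± 3.39 CPM (SD, n = 3). The log2 fold change was 2.06 ± 0.14 (95% interval 1.75 to 2.37, adjusted p = 5.49e-06), the smallest adjusted p among the 10 genes. Lyz1, the neighbouring copy 5475 bases away, had 0 or 1 count in each library, and a read that fits both copies would not be counted as unique.

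Cst7 (ENSMUSG00000068129, chr2:150570415-150578944, plus strand) encodes cystatin F, an inhibitor of lysosomal cysteine proteases. The WT libraries held 1, 2 and 1 counts, at the floor, and the GFAP-IL6 libraries held 18, 22 and 22. Cst7 was therefore almost undetected in WT cortex and low but present in each GFAP-IL6 mouse, at 1.61, 2.91 and 2.46 CPM. Pooled over mice, 62 counts in GFAP-IL6 against 4 in WT gave a ratio of 25.1 per library total, with an exact 95% interval of 9.34 to 95.2 for counting error only. The fitted log2 fold change was 4.50 ± 0.48 (adjusted p = 0.000169), and its size depends on how counts near 0 are handled. Its 95% interval of 3.45 to 5.55 on the log2 scale is narrower than the counting interval, so the SE understates the uncertainty.

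Cd68 (ENSMUSG00000018774, chr11:69664213-69666153, minus strand) encodes a heavily glycosylated lysosomal membrane protein used as a stain for phagocytic microglia. It was at 4.70, 5.43 and 7.03 CPM in WT and at 11.92, 8.19 and 12.06 CPM in GFAP-IL6. The groups lay apart, but the gap between WT replicate 3 and GFAP-IL6 replicate 2 was narrow. The log2 fold change was 0.91 ± 0.19 (95% interval 0.48 to 1.33, adjusted p = 0.0246). Cd68 did not pass the test without GFAP-IL6 replicate 1 (0.82, adjusted p = 0.134) or without GFAP-IL6 replicate 3 (0.82, adjusted p = 0.177).

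These 5 genes were also the ones whose groups did not overlap, which is read from the same values as the test. For Cst7 the filter on low counts had set this beforehand. Of all genes tested, 13.8% had every GFAP-IL6 library above every WT library.

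**Figure D2:**
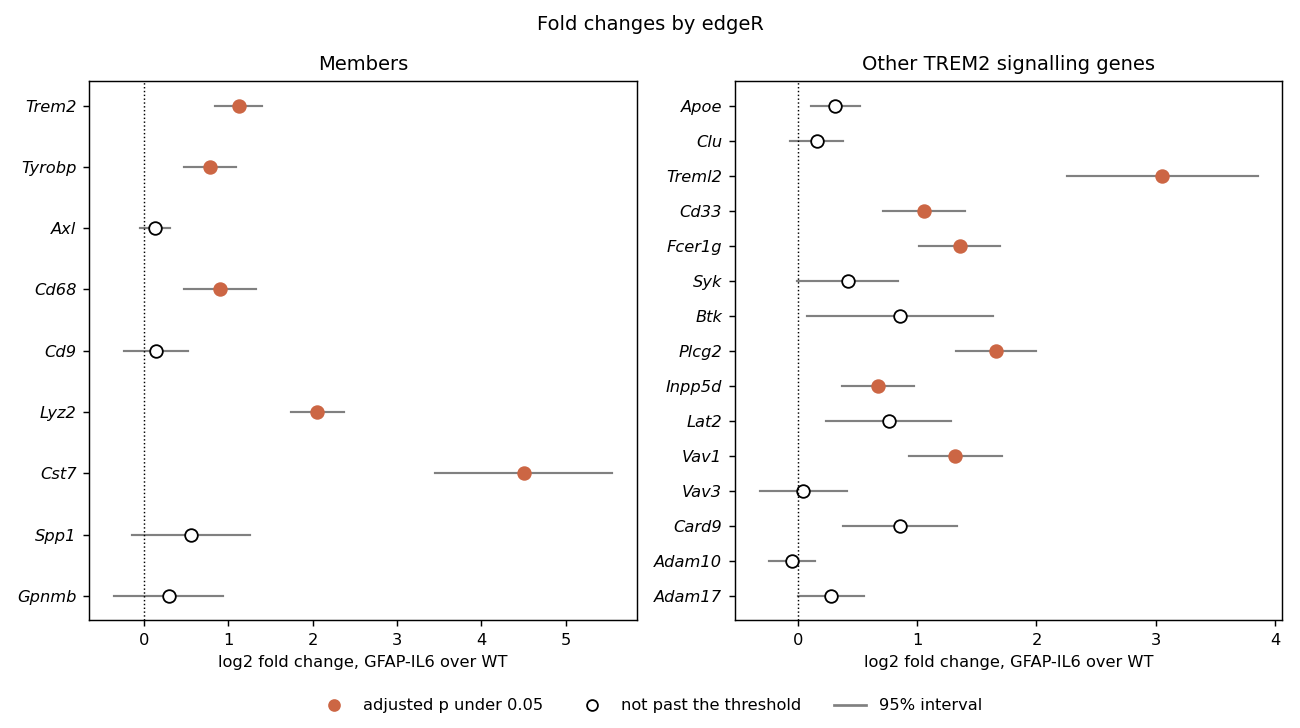
Log2 fold change of GFAP-IL6 over WT for the 9 genes tested, filled where the adjusted p was under 0.05. Lines give the 95% interval built on the SE of the edgeR fit. Cst7, Lyz2 and Trem2 lie above 1, Cd68 and Tyrobp lie between 0 and 1, and the intervals of Axl, Spp1, Gpnmb and Cd9 include 0.

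Axl encodes a receptor tyrosine kinase that helps phagocytes engulf dying cells. Its level was 52.87, 51.60 and 56.94 CPM in WT and 56.38, 59.42 and 61.51 CPM in GFAP-IL6. The lowest GFAP-IL6 library fell just below the highest WT library, so the groups overlapped. The log2 fold change was 0.13 ± 0.08 (adjusted p = 0.365). Its 95% interval of -0.04 to 0.31 leaves out a rise in whole-cortex mRNA as large as the fitted one of Tyrobp. The level in microglia alone is not given by it.

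Spp1 encodes osteopontin, a secreted matrix protein that binds integrins. It was at 4.88, 8.35 and 4.90 CPM in WT and at 5.47, 7.26 and 14.51 CPM in GFAP-IL6. One mouse, GFAP-IL6 replicate 3, stood high, and the other GFAP-IL6 mice lay within the WT range. The log2 fold change of 0.56 ± 0.32 (95% interval -0.14 to 1.26, adjusted p = 0.341) fell to 0.05 when one library was left out and rose to 0.88 when another was. In the annotation used here, 18.8% of the exon bases of Spp1 are shared with Gm42793 on the same strand, which has no row in the table.

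Gpnmb encodes a membrane glycoprotein of lysosome-rich and lipid-laden macrophages. The WT libraries held 22, 43 and 32 counts and the GFAP-IL6 libraries 19, 22 and 32, or 1.92, 2.56 and 2.01 CPM against 1.70, 2.91 and 3.57 CPM. GFAP-IL6 replicate 1 was the lowest of the 6 libraries and GFAP-IL6 replicate 3 the highest. Its log2 fold change of 0.29 ± 0.30 had a 95% interval of -0.35 to 0.94 (adjusted p = 0.601), which includes a rise as large as the fitted one of Tyrobp.

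Cd9 encodes a tetraspanin, a membrane organiser found on microglia and also abundant in myelin. It was at 29.27, 52.67 and 42.63 CPM in WT and at 43.03, 41.20 and 54.48 CPM in GFAP-IL6. WT replicate 1 was far below the other mice, which overlapped. The log2 fold change was 0.15 ± 0.17 (95% interval -0.23 to 0.52, adjusted p = 0.663) and turned to -0.04 without WT replicate 1. A set of 6 genes of oligodendrocytes, the myelin-forming cells, summed to 3225, 5940 and 5369 CPM in the WT libraries and to 4216, 3246 and 5068 CPM in the GFAP-IL6 libraries, with WT replicate 1 the lowest here too. The part of these cells in the Cd9 values was not tested. Of the exon bases of Cd9, 10.7% overlap Gm26728 on the opposite strand, and the sources do not state whether counting used the strand.

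Clec7a encodes dectin-1, a lectin receptor for fungal glucans that disease-associated microglia display. The row of that symbol held 0, 1 and 2 counts for the WT mice and 1, 1 and 2 for the GFAP-IL6 mice. All 6 libraries were at the floor, and no fold is given. That row carries the identifier ENSMUSG00000102040 with a length of 735 bases, which the annotation used here does not hold. There Clec7a is ENSMUSG00000079293, a polymorphic pseudogene with 2638 exon bases (chr6:129461591-129472779, minus strand), and the table has no row with that type of gene. The counts of Clec7a may therefore cover a part of the gene only, and a rise cannot be judged from them.

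Levels of different genes were compared as TPM, which divides each count by the gene length given in the table. In WT cortex, Cd9 was the highest with 93.3 ± 23.9 TPM (SD, n = 3), followed by Tyrobp with 50.02 ± 5.21, Axl with 34.9 ± 2.29, Trem2 with 26.1 ± 0.546, Lyz2 with 13.4 ± 1.46, Cd68 with 12.6 ± 2.58 and Spp1 with 10.1 ± 3.05 TPM. Gpnmb at 1.58 ± 0.210 TPM, Cst7 at 0.252 and Clec7a at 0.231 TPM were the lowest. Neighbours in this order overlapped for Lyz2, Cd68 and Spp1, and for Cst7 and Clec7a, whereas Cd9, Tyrobp, Axl and Trem2 were each apart from the next.

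In GFAP-IL6 cortex, Cd9 at 110 ± 16.8 TPM and Tyrobp at 91.6 ± 12.9 TPM remained the highest, but their ranges overlapped. Trem2 at 59.64 ± 9.70 and Lyz2 at 59.55 ± 7.46 TPM could not be ordered, and both were above Axl at 40.2 ± 1.45 TPM in all 3 libraries. Cst7 at 6.86 ± 1.88 TPM was above Gpnmb at 2.09 ± 0.713 TPM, the reverse of their order in WT. The gene lengths in the table are those of one annotation release, and TPM moves with them.

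GFAP-IL6 replicate 3 gave the highest value of its group in 8 of the 9 genes tested, and WT replicate 1 the lowest of its group in 7 of 9. The same was not counted over all genes, so nothing particular to these 9 follows. Il6 was also highest in GFAP-IL6 replicate 3, at 2.68 CPM against 1.08 and 1.32 in the other mice, and its part in the values of these genes was not tested. Between mice of one group, the coefficient of variation of CPM ran from 1.59% for Trem2 to 33.1% for Spp1 in WT, with Cst7 and Clec7a near the floor left aside, and from 4.36% for Axl to 52.7% for Spp1 in GFAP-IL6.

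**Figure D3:**
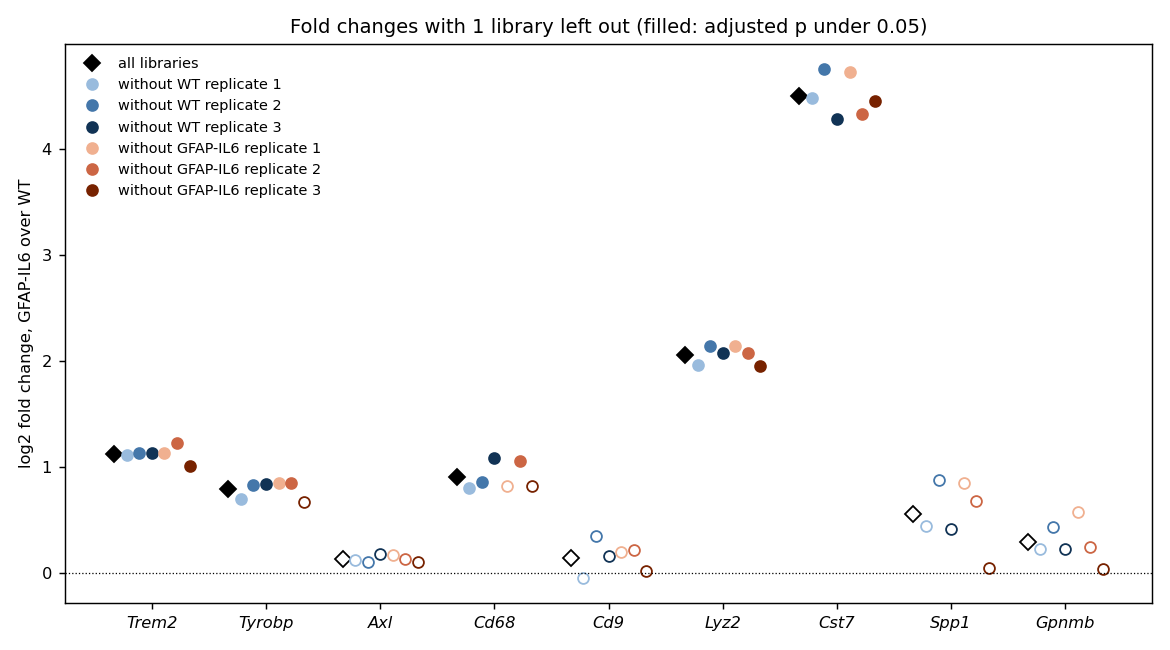
Log2 fold change of GFAP-IL6 over WT for the 9 genes with all 6 libraries (diamond) and with each library left out in turn (circles), filled where the adjusted p was under 0.05. Trem2, Cst7 and Lyz2 are filled throughout, Tyrobp has 1 open circle and Cd68 has 2, and Cd9 drops just below 0 without WT replicate 1.

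The promoters of the 4 called genes with an entry are shown because these genes rose together in the same mice. Each window runs from 250 bases before the transcription start to 50 bases after it, 5′ to 3′ on the strand of the gene, from RefSeq on GRCm38.p6, and 9 of the 10 genes had an entry, with Tyrobp the exception. Spp1 and Clec7a have more than 1 start, so that the 9 genes have 11 windows. The windows are chr17:48346151-48346450 on the plus strand for Trem2, chr2:150570165-150570464 on the plus strand for Cst7, chr11:69666121-69666420 on the minus strand for Cd68 and chr10:117282223-117282522 on the minus strand for Lyz2. Capitals mark matches to 5 motifs searched on both strands: AP-1 (TGANTCA), PU.1 (GAGGAAG), C/EBP (TTGCNNAA), STAT (TTCNNNGAA) and the E-box bound by MITF and TFE factors (CACGTG). The motifs were chosen with the results known, and a match describes letters, not binding.
Trem2: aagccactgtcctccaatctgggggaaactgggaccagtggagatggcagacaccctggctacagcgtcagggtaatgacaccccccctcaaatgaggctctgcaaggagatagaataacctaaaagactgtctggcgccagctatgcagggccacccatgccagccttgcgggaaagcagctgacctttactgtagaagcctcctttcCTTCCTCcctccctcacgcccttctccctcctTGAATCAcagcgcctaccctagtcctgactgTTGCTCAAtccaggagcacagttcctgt
Cst7: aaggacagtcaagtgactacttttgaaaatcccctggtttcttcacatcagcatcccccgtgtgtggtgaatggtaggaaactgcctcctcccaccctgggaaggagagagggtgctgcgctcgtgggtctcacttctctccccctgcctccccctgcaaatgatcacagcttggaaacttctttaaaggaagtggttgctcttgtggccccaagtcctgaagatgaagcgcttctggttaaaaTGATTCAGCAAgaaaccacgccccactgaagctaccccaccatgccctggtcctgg
Cd68: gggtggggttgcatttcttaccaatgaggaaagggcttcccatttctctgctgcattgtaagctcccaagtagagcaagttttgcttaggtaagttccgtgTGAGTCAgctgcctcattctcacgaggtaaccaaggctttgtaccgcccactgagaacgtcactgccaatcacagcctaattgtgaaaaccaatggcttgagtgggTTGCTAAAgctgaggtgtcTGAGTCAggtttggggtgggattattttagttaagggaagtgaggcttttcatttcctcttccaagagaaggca
Lyz2: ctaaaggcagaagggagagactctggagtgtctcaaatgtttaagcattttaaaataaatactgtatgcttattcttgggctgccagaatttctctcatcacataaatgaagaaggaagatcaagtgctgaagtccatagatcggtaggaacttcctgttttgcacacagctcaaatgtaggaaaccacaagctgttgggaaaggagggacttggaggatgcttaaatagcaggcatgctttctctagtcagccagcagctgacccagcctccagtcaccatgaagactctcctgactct

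The promoter of Trem2 held 3 of the motifs. The match to PU.1, the factor that defines the myeloid lineage, lies 41 to 35 bases before the start on the minus strand, where it reads CTTCCTC. The AP-1 match lies 9 to 3 bases before the start, and the C/EBP match begins at base 23 of the transcript. Cd68 held AP-1 matches at 149 to 143 and at 24 to 18 bases before the start and a C/EBP match at 43 to 36 bases before it. In Cst7 an AP-1 match spans the start, from 6 bases before it to base 1, and overlaps a C/EBP match on the other strand. The window of Lyz2 held none of the 5.

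Of the 11 windows, AP-1 was matched in 4 (Cd68, Cst7, Gpnmb and Trem2), C/EBP in 4 (Cd68, Cst7, Spp1 and Trem2), PU.1 in 3 (Axl, Spp1 and Trem2), and STAT and the E-box in 0. The PU.1 and C/EBP matches of Spp1 lie in different windows. Among all 32851 mouse promoter windows of this length, counted in the same way, AP-1 was matched in 7.81%, C/EBP in 10.8%, PU.1 in 13.6%, STAT in 8.3% and the E-box in 7.15%. Matches occurred in genes that rose and in genes that did not pass the test.

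The wider TREM2 and TYROBP signalling pathway was described by 17 other genes, of which 15 were tested, 6 rose and 0 fell. Of all genes tested, 2.65% were called higher and 0.209% lower. The median log2 fold change of the list was 0.76. Plcg2, the phospholipase that acts downstream of TREM2, rose by 1.66 ± 0.15 (adjusted p = 5.07e-05), with 3.92, 3.94 and 3.83 CPM in WT against 11.56, 11.75 and 13.73 CPM in GFAP-IL6. Fcer1g, the Fc receptor gamma chain and a second adaptor of the same kind as TYROBP, rose by 1.36 ± 0.16. The exchange factor Vav1 rose by 1.32 ± 0.18. The receptor Cd33 rose by 1.06 ± 0.16 and Inpp5d, a lipid phosphatase that opposes the pathway, by 0.67 ± 0.14. Treml2, a receptor of the same gene cluster as Trem2 on chromosome 17, went from 3, 5 and 10 counts in the WT mice to 39, 19 and 38 in the GFAP-IL6 mice, with a fitted log2 fold change of 3.05 ± 0.37. Among the genes of the list that rose, Treml2 was the 1 that passed the filter on low counts through GFAP-IL6 alone.

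The most abundant genes of the list that did not pass were Apoe, Clu and Adam10. Apoe, the lipoprotein that binds TREM2, was at 996 to 1127 CPM in WT and at 1186 to 1471 CPM in GFAP-IL6, and its groups lay apart, but the log2 fold change of 0.32 ± 0.10 did not pass the test (adjusted p = 0.105). Clu, another lipoprotein ligand, had a log2 fold change of 0.16 ± 0.10 (adjusted p = 0.390). Adam10, which cleaves TREM2 from the cell surface, had -0.05 ± 0.09 (adjusted p = 0.795). Trem1, the inflammatory relative of TREM2, had 0 counts in all 6 libraries.

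Other genes usually counted with disease-associated microglia gave a mixed result. Of 20 genes, 19 were tested, 7 rose and 0 fell, against 2.65% and 0.209% of all genes tested. The median log2 fold change of the list was 0.11. Itgax, the integrin CD11c, went from 1, 5 and 4 counts in the WT mice to 24, 12 and 17 in the GFAP-IL6 mice, a fitted difference of 3.02 ± 0.41. Ch25h, which makes 25-hydroxycholesterol, had a fitted difference of 2.69 ± 0.42, and the surface glycoprotein Cd52 of 1.94 ± 0.28. Itgax and Ch25h passed the filter on low counts through GFAP-IL6 alone, 2 of the 7 that rose. Ctsz, Ctsd and Ctsl, which encode lysosomal proteases, rose by 0.79 ± 0.11, 0.50 ± 0.09 and 0.41 ± 0.08. The 3 most abundant genes that did not pass were Fth1 at -0.04 ± 0.12, the lysosomal protease Ctsb at 0.04 ± 0.07 and Timp2 at -0.05 ± 0.08. Other brain cells also express these 3, and the part of such cells in the values of the list was not tested. Lpl (-0.41 ± 0.14, adjusted p = 0.135) and Fabp5 (-0.31 ± 0.10, adjusted p = 0.132), which handle lipids, were lower at an unadjusted p under 0.05 only, and passed the test without WT replicate 1 (-0.50, adjusted p = 0.0418, and -0.37, adjusted p = 0.0468). Without GFAP-IL6 replicate 3, the count of genes that rose in this list was 4.

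**Figure D4:**
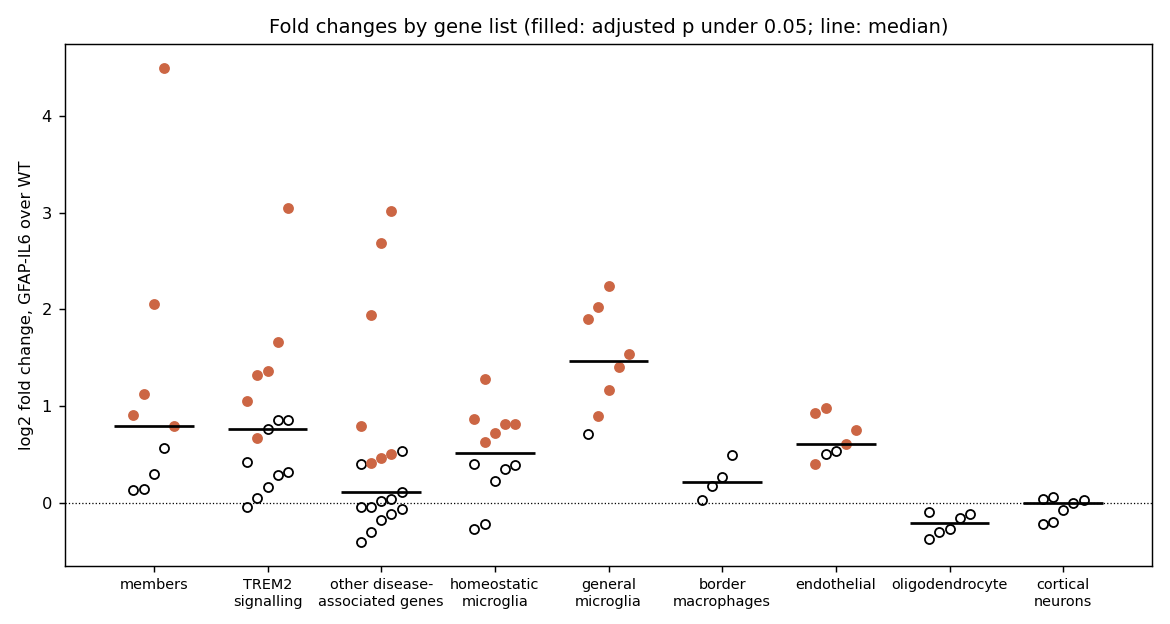
Log2 fold change of GFAP-IL6 over WT for each tested gene of 9 gene lists, filled where the adjusted p was under 0.05, with a line at the median of each list. General microglia genes have the highest median, 1.47. Homeostatic microglia genes, TREM2 signalling genes and the 9 members lie between 0.52 and 0.79, as do endothelial genes at 0.60.

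Genes shared by microglia and macrophages were set beside the 10 genes. Of 8 such genes, 7 rose, against 2.65% of all genes tested, and the median log2 fold change of the 8 was 1.47. The largest were Ptprc, which encodes the leukocyte phosphatase CD45, at 2.24 ± 0.16 and the integrin Itgam, also called CD11b, at 2.03 ± 0.10, with the protease Ctss at 1.90 ± 0.14. Spi1, which encodes PU.1, rose by 1.54 ± 0.20, and Irf8 and Laptm5 rose by 1.40 ± 0.17 and 1.17 ± 0.09.

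Of 12 genes of homeostatic microglia, 6 rose and 0 fell, against 2.65% and 0.209% of all genes tested, with a median of 0.52. Among the 6 were Olfml3 (1.27 ± 0.11), the growth factor receptor Csf1r (0.87 ± 0.09), Tmem119 (0.81 ± 0.12), Fcrls (0.81 ± 0.14) and the chemokine receptor Cx3cr1 (0.63 ± 0.10). P2ry12, a purine receptor of resting microglia, had 36.2, 55.6 and 47.0 CPM in WT against 38.2, 33.8 and 43.1 CPM in GFAP-IL6, and its log2 fold change was -0.27 ± 0.14 (adjusted p = 0.291). Without WT replicate 1 it was -0.41 and passed the test (adjusted p = 0.0462). Sall1 (0.34 ± 0.10, adjusted p = 0.0948) and Selplg (0.22 ± 0.11, adjusted p = 0.252) did not pass either, but were higher. Groups lay apart and higher in 10 of the 12 genes, as for 13.8% of all genes tested.

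Each gene was also taken relative to the genes shared by microglia and macrophages, as the log2 of its CPM plus 0.5 over the geometric mean of those 8 genes in the same library. That mean was itself higher by 1.51, so the median difference in ratio over all genes tested was -1.51, and a ratio that fell describes the denominator as much as the gene. Lyz2 had ratios of -0.62, -0.61 and -0.58 in WT and -0.22, -0.07 and -0.08 in GFAP-IL6, a difference of 0.48, and Cst7 differed by 0.73. For both, every GFAP-IL6 library was above every WT library, as for 0.235% of all genes tested. Cst7 passed the filter on low counts through GFAP-IL6 alone, so its height there was in part a condition of its being tested. The size for Cst7 depends on the 0.5 added, and with 0.1 CPM in its place the difference was 2.14.

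Trem2 had ratios of 0.32, 0.01 and 0.15 in WT and -0.20, -0.41 and -0.20 in GFAP-IL6, a difference of -0.43. Cd68 differed by -0.66, Tyrobp by -0.74, Spp1 by -1.03, Gpnmb by -1.27, Cd9 by -1.32 and Axl by -1.37. These 7 genes were lower with no overlap of the groups, but so were 98.2% of all genes tested, and the count says nothing particular to them. Each exact permutation test gave p = 0.1, also after adjustment over the 9 genes, the smallest value possible.

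**Figure D5:**
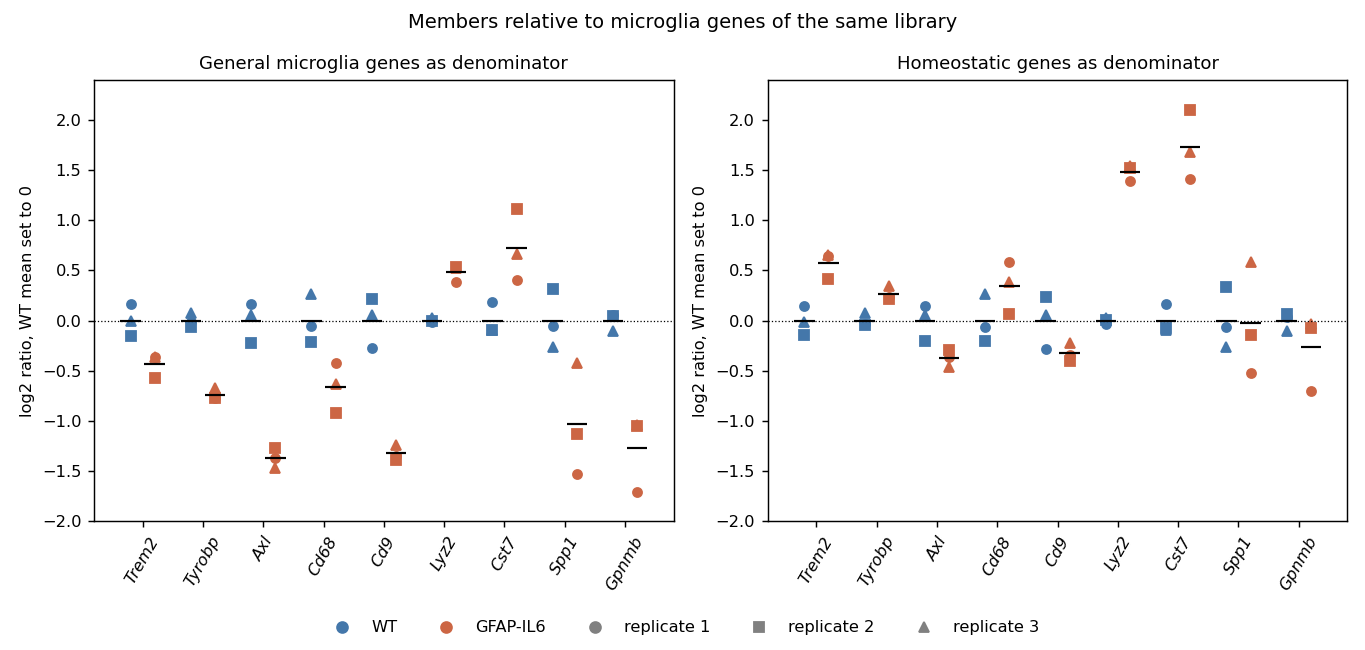
Log2 ratio of each of the 9 genes to the geometric mean of the general microglia genes and to that of the homeostatic microglia genes, for each of the 6 libraries. The WT mean of each gene was subtracted from its ratios. With the general genes as the denominator 7 genes are lower and 2 higher in GFAP-IL6, where 98.2% of all genes are lower, and with the homeostatic genes 4 are higher and apart, 1 is lower and apart and 4 overlap.

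With the 12 homeostatic genes as the denominator, whose geometric mean was higher by 0.51, the direction turned for Trem2 (0.57), Tyrobp (0.26) and Cd68 (0.34). The groups then lay apart and higher for Trem2, Tyrobp, Cst7 (1.73) and Lyz2 (1.48), as for 1.69% of all genes tested. Axl was lower and apart (-0.37), as were 68.1% of all genes, and the groups overlapped for Spp1, Gpnmb, Cd68 and Cd9. Lyz2 and Cst7 were the 2 of the 9 genes that were higher and apart against both denominators, with the limit of the low-count filter for Cst7 here too. The smallest adjusted p was 0.18, and no difference of this kind could pass a threshold of 0.05 with 3 mice in each group.

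Markers of other cells the tissue could hold were set beside these values. Border macrophages, which carry Lyz2 and Cd68, were followed with 7 markers that summed to between 7.97 and 13.7 CPM in WT and between 9.68 and 16.5 in GFAP-IL6. Of these, 0 of the 4 tested passed, also at an unadjusted p under 0.05 or by DESeq2. For monocytes and neutrophils, which carry Lyz2 in blood, 10 markers summed to between 0.523 and 1.31 CPM in WT and between 1.06 and 2.68 in GFAP-IL6, and 7 of the 10 had at most 3 counts in each library. Ly6c2, a defining marker of inflammatory monocytes, was at 0 in every WT library and at 0, 1 and 1 counts in the GFAP-IL6 libraries, while the chemokine receptor Ccr2, too low to be tested, was at 0.174, 0.656 and 0.502 CPM in WT and at 1.26, 0.660 and 1.45 CPM in GFAP-IL6. Ccr2 thus lay higher in every GFAP-IL6 library, by a narrow gap. The 8 lymphocyte markers summed to between 1.13 and 2.92 CPM in WT and between 1.79 and 2.42 in GFAP-IL6. Most of that sum was Cd4 except in GFAP-IL6 replicate 3, where Cd4 was at 0.45 of 1.79 CPM. Without Cd4, a sum chosen after the values were seen, it was 0.298 to 0.348 CPM in WT and 0.660 to 1.34 in GFAP-IL6, so that the groups lay apart. Of the chains of the CD3 complex of T cells, Cd3d was at 0 in all 6 libraries and Cd3e at 0 in WT and at 3, 1 and 2 counts in GFAP-IL6. Endothelial markers moved with the genotype, since 5 of 7 rose, against 2.65% of all genes tested. Their sum was 180 to 198 CPM in WT and 276 to 321 in GFAP-IL6. The part of endothelial cells, monocytes and lymphocytes in the values of the 10 genes was not tested.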

How the data were processed

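The authors deposited whole-number counts, 1 row per gene and 1 column per library, with a length for each gene. The authors aligned the reads with STAR 2.4 to mm10, and featureCounts assigned unique alignments to GENCODE genes. The submitters' processing notes also name the human build hg19. Strand use was not given in the sources used here. Each library came from 1 mouse, and the sample titles gave its group and replicate number.

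Differential expression was tested in R 4.3.3 with the quasi-likelihood F-test of edgeR 4.0.16, with TMM scaling, the filterByExpr filter, the genotype as the only term and Benjamini-Hochberg adjustment. DESeq2 1.42.0, which the authors used, limma-voom 3.58.1, other scaling and filters, thinning to the smallest library and leaving out each library were run as alternatives. Scripts were tested on simulated counts. CPM and TPM were computed from the counts. Depth ranged from 7559524 to 16877001 counts, and intervals on counts cover counting error only. Positions are from GENCODE release M21 (GRCm38, the same assembly as mm10), which held 32593 of the 33000 identifiers, and were matched by identifier, or by symbol for Clec7a. Promoters are from RefSeq.

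The 10 genes, the gene lists and the motifs were chosen with earlier results of these data known. By rule, all 10 were named, with up to 6 genes per list that passed the test with the smallest adjusted p and up to 3 of the highest mean CPM that did not. Il6, Gfap, Hcst, Trem1, Lpl, Fabp5, Ly6c2, Ccr2, Cd4, Cd3d and Cd3e were named outside this rule. An item that the rule names is not reported here.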

Additional observations from a re-analysis of the deposited data

How the results depend on the processing

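Over the 13 alternatives to the edgeR fit, 113 of 117 values of the 9 genes kept their direction and their side of the threshold. Tyrobp passed no more without GFAP-IL6 replicate 3 (0.67) and Cd68 not without GFAP-IL6 replicate 1 (0.82) or replicate 3 (0.82), and Cd9 turned to -0.041 without WT replicate 1. With libraries left out in turn the log2 fold changes ranged from 0.67 to 0.85 for Tyrobp, from 0.80 to 1.08 for Cd68 and from -0.041 to 0.35 for Cd9. The count of the 10 genes called ranged from 3 to 5, and that of the other disease-associated genes, in either direction, from 4 to 9. Those 9, called without WT replicate 1, were 7 higher and 2 lower. The count of all genes called ranged from 187 (without GFAP-IL6 replicate 3) to 1061 (without WT replicate 1), against 439 with all libraries. With an absolute log2 fold change over 1 it ranged from 129 to 239. Without the low-count filter 1154 genes were called, of 22621 tested. The causes were not tested.

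Against homeostatic microglia genes the median ratio of the 9 genes turned from -0.74 to 0.26, with Trem2 at 0.57, Tyrobp at 0.26 and Cd68 at 0.34. Whether the replicate numbers pair the mice could not be settled with 3 libraries per group. The deviations of same-numbered libraries from their group means correlated at 0.112, 0.0172 and 0.0350. Differently numbered libraries correlated at -0.0860 to 0.0520, the highest for WT replicate 2 with GFAP-IL6 replicate 3. A fit with the replicate number as a block called 750 genes and moved none of the 9 genes across the threshold. With 4 counts of Cst7 in WT, and 3 counts of Clec7a in WT and 4 in GFAP-IL6, depth limits what can be said of these 2 genes.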

Other observations

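Over the 6 libraries, the genes whose centred log2 CPM differed least from that of Trem2 were Icam1, an adhesion molecule (root mean square difference 0.0382), Apobec1, B3gnt3, the TNF receptor Tnfrsf1a and Tcirg1, a subunit of the proton pump of lysosomes (0.0875). Tyrobp ranked at 93 in that order, with 0.188. For Tyrobp the nearest were Itgb5 (0.0480), Msn, Synpo2, Capg and Lyl1. This is a description over 6 libraries that share the genotype difference, and nothing on shared function or control follows from it.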
